A study of Mus musculus with 11 samples.

Results

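In glands of the mouse stomach, 528 genomic regions away from gene ends carried a peak of acetylated lysine 27 of histone H3 (H3K27ac) in every one of 8 ChIP-seq libraries. To find them, the peaks of the 8 deposited H3K27ac lists on chromosomes 1 to 19 and X were merged into 45804 regions. A region was kept when it overlapped a peak of each list by at least 1 bp and had no end of a protein-coding gene within 2.5 kb. Of the merged regions, 28522 met the distance rule (called distal below, which describes distance and nothing else), and 528 of these, 1.85%, were in all 8 lists. A further 2746 regions were in all 8 lists but lay within 2.5 kb of a gene end. The regions were chosen by measured values, namely a called H3K27ac peak in every list, so their number and the strength of their peaks are a description and support no test.

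The libraries came from stomach glands of wild type mice, of Atp4bCre; Rosa26NICD mice (NICD), of Atp4bCre; Rosa26NICD; Arid1a flox/+ mice (1-allele) and of Atp4bCre; Rosa26NICD; Arid1a flox/flox mice (2-allele), with 2 H3K27ac libraries in each of these 4 groups. Atp4bCre expresses Cre recombinase from a promoter of the acid-secreting parietal cell, Rosa26NICD supplies the active intracellular part of the Notch receptor after recombination, and the product of Arid1a is a subunit of SWI/SNF, a chromatin remodelling complex. All groups other than wild type carried both transgenes. There were also 3 libraries labelled as trimethylated lysine 4 of histone H3 (H3K4me3), 1 each from wild type, NICD and Arid1a-floxed glands, and the labels of the floxed library disagree on whether 1 or 2 alleles were floxed. The glands hold other cells than the parietal lineage, and in such bulk samples a smaller number of cells of a type and less mark per cell cannot be told apart. Pellets were pooled, so libraries of a group may share animals, and the spread behind each p-value may be technical.

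H3K27ac is deposited by the acetyltransferases p300 and CBP at active enhancers and promoters, and H3K4me3 by the SET1 and MLL complexes at promoters. An enhancer typically has H3K27ac with little H3K4me3, while a promoter has both marks beside its start site. Many genes have more than 1 promoter, and the start of an alternative transcript can lie far inside the gene body, where a rule based on gene ends does not see it. Promoters of small nuclear RNA genes, which supply RNAs to the spliceosome and to ribosomal RNA processing, carry the same marks. They can lie away from the ends of protein-coding genes, outside or inside them.

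Depth and list length differed widely. After removal of duplicates the 6 H3K27ac libraries with a file header had 7.96 M to 18.3 M tags and the H3K4me3 libraries 11.8 M to 20.8 M, and NICD replicate 2 had a redundant rate of 0.52. The depth of both 2-allele libraries was not given. The lists held 20572 and 18344 peaks in wild type, 41380 and 25423 in NICD, 5148 and 7594 in the 1-allele group, and 15353 and 14364 in the 2-allele group. The H3K4me3 lists held 17522 (wild type), 39360 (NICD) and 5157 (Arid1a-floxed) peaks. The shortest lists therefore limited which regions could be in all 8: of the 600 distal regions missing from a single list, 375 (62.5%) were missing from 1-allele replicate 1 and 155 from 1-allele replicate 2. Without 1-allele replicate 1, 903 distal regions were in the remaining lists. Markers of the labelled tissue were checked by peaks within 2.5 kb of gene ends. Of 20 parietal genes 14 and 12 had one in wild type, 10 and 10 in NICD, 5 and 4 in 1-allele and 9 and 6 in 2-allele libraries, while Atp4a, a subunit gene of the proton pump, had none in any. Of 38 epithelial junction and keratin genes 17 to 33 had one in a library, Epcam in all 8. Other cell types showed 1 to 9 of 25 immune, 0 to 4 of 18 fibroblast and muscle, and 1 to 3 of 14 endothelial genes, each with its maximum in NICD replicate 1 (for endothelial genes in both NICD libraries). The marker lists were chosen with the data known, and their part in the results was not tested.

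Although no gene end lay nearby, 42.8% of the 528 regions overlapped a start window of an annotated transcript or a small RNA gene, against a background of 5.43% of all distal regions. The regions were also wider, with a median of 908.5 bp against 328 bp over all distal regions. The part of width in this overlap was not tested. A start window here is the sequence from 250 bases before to 50 bases after a start in RefSeq (build GRCm38.p6), and 274 of them lay in the regions. By this annotation 170 regions (32.2%) held a protein-coding start, all of them inside a gene. A further 38 (7.20%) held the start of a long non-coding RNA (lncRNA), 18 (3.41%, against a background of 0.442%) overlapped a small RNA gene, and 302 (57.2%) held none of these. The label distal is thus only partly borne out, and the 4 classes are described separately below. The sequences of 4 start windows and of 1 pair of mature miRNAs are printed first, since the marks sit beside them.

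The 3 protein-coding windows below lay whole inside strong regions of the class and differ in the motifs they hold. Each is read 5′ to 3′ on the strand of the gene, from RefSeq, GRCm38.p6, with the start 50 bases before its end. Capitals mark any match, on either strand, to any of 10 short motifs, whose letters are given with their shares. Nfyc encodes a subunit of the CCAAT-binding factor NF-Y, and its window (chr4:120825160-120825459, minus strand, 6.37 kb inside the gene from its 5′ end) held no match. Ccnl1 encodes a cyclin that takes part in splicing, and its window (chr3:65958200-65958499, minus strand, 3.78 kb inside the gene) held 2 KLF matches. Phf14 encodes a PHD finger protein, and its window (chr6:11925631-11925930, plus strand, 18.2 kb inside the gene) held 1 ETS match.
Nfyc: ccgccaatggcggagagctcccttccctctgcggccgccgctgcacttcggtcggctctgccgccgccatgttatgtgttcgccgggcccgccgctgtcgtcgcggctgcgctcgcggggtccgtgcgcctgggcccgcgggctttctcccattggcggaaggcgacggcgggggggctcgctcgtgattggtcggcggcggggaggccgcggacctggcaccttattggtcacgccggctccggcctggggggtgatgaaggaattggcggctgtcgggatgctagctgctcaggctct
Ccnl1: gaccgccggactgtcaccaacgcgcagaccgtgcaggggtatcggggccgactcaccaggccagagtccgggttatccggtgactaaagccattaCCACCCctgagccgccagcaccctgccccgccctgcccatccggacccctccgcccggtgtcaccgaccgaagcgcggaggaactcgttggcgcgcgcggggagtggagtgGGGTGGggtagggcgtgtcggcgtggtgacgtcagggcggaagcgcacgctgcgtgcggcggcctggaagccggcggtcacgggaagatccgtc
Phf14: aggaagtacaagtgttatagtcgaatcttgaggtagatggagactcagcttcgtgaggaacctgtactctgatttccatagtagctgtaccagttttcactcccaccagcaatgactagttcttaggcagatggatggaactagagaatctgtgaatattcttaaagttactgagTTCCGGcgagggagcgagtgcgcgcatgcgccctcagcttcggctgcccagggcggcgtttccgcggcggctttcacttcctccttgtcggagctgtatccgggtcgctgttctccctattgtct

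The lncRNA window shown lies whole inside a strong region of that class. That of 1700055D16Rik (chr6:134792110-134792409, plus strand) held 1 KLF match.
1700055D16Rik: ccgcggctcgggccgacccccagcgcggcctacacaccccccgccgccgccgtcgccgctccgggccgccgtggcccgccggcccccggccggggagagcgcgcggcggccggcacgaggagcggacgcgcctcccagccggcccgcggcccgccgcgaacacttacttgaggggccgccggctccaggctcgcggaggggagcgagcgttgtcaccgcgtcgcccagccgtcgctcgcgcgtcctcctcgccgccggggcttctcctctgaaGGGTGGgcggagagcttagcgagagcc

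Mir193a (chr11:79711969-79712034, plus strand) is the miRNA gene shown, since its whole hairpin lay inside a region (chr11:79710960-79712182). Both mature arms are printed from RefSeq with the seed, bases 2 to 8, in capitals.
mmu-miR-193a-5p: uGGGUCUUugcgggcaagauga
mmu-miR-193a-3p: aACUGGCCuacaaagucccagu

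As a set, the start windows in the regions were rich in G, C and CpG. Their median GC content was 65.5% (quartiles 59 to 71.9%), against 53% over all 32619 start windows on these chromosomes. The median ratio of observed to expected CpG was 0.827 against 0.387, and 78.9% of the 270 different windows had at least 50% GC and a ratio of at least 0.6, against 33.7% of all windows. Windows in the gene-end regions called in all 8 lists were much the same, with a median GC content of 65.3%, a ratio of 0.850 and 85.6% past both limits. The ETS motif, spelled CCGGAA, lay on either strand in 25.9% of the windows in the regions, in 34.2% of those in gene-end regions and in 15.0% of all windows. The shares for the KLF motif, spelled CCACCC, were 38.5%, 36.8% and 31.6% in the same order. For the GATA motif, spelled AGATAA, they were lower in the regions than over all windows, at 3.33%, 3.75% and 11.2%. The motif of Rbpj, the DNA-binding partner of active Notch, was searched as TGGGAA and had shares of 18.9%, 20.9% and 25.4%. For Tead, searched as GGAATG, the shares were 13.3%, 11.2% and 14.6%. The AP-1 motif, searched as TGANTCA with any base at N, had shares of 5.19%, 3.82% and 7.85%. The FOX motif, searched as TGTTTAC, had shares of 3.70%, 2.11% and 3.67%. The Esrr motif TCAAGGTCA lay in 0 of the 270 windows, as did the Grhl motif AACCGGTT, and the Hnf4 motif CAAAGTCCA lay in 2 of them. The Tead motif shares the letters GGAA with the Rbpj and ETS motifs, and the ETS and Grhl motifs share letters too. Such matches can overlap, so these shares are not separate counts. A match is a description of sequence and not of binding.

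Peaks of the libraries labelled H3K4me3, which played no part in choosing the regions, lay at nearly all of them in 2 of 3 libraries. The protocols name only an antibody to H3K27ac, so it is not known whether these libraries report a second mark. H3K4me3 below stands for the label. In wild type glands 470 of the 528 regions (89.0%) overlapped an H3K4me3 peak, against a background of 8.82% of all distal regions. In NICD glands 517 (97.9%) did, against 37.9%, and in Arid1a-floxed glands 240 (45.5%), against 2.67%. Beside them, the share among the other distal regions was 7.31%, 36.8% and 1.86% in the same order, and that among the gene-end regions in all 8 lists was 98.5%, 99.9% and 55.7%. The share at the regions was thus higher than at other distal regions and lower than at gene-end regions in each of the 3 libraries. The regions were wider than distal regions in general, and the part of width in these shares was not tested. The mean difference from other distal regions was 62.1 percentage points, with a two-sided exact sign-flip permutation p of 0.25, the smallest that 3 libraries can give. With every H3K27ac list cut to its first 5148 peaks the difference was 34.0 points, the other distal regions then having shares of 51.8%, 74.8% and 22.7%. H3K4me3 lay at the region in all 3 libraries for 236 regions, in 2 for 233, in 1 for 53 and in none for 6. The low share in the floxed library goes with its short list, which holds 5157 peaks, and the part of list length in it was not tested. Each H3K4me3 group has 1 library, so no comparison between genotypes was made.

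The share with H3K4me3 was higher with every added H3K27ac list in which a distal region was called. Among the 16184 distal regions called in 1 list, 1.60% had H3K4me3 in wild type and 24.1% in NICD glands. Among the 600 called in 7 lists the shares were 68.8% and 91.2%. The share with an annotated start window or a small RNA gene went from 2.09% to 35% over the same steps, and the median width of the region from 246 to 817 bp.

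**Figure D1:**
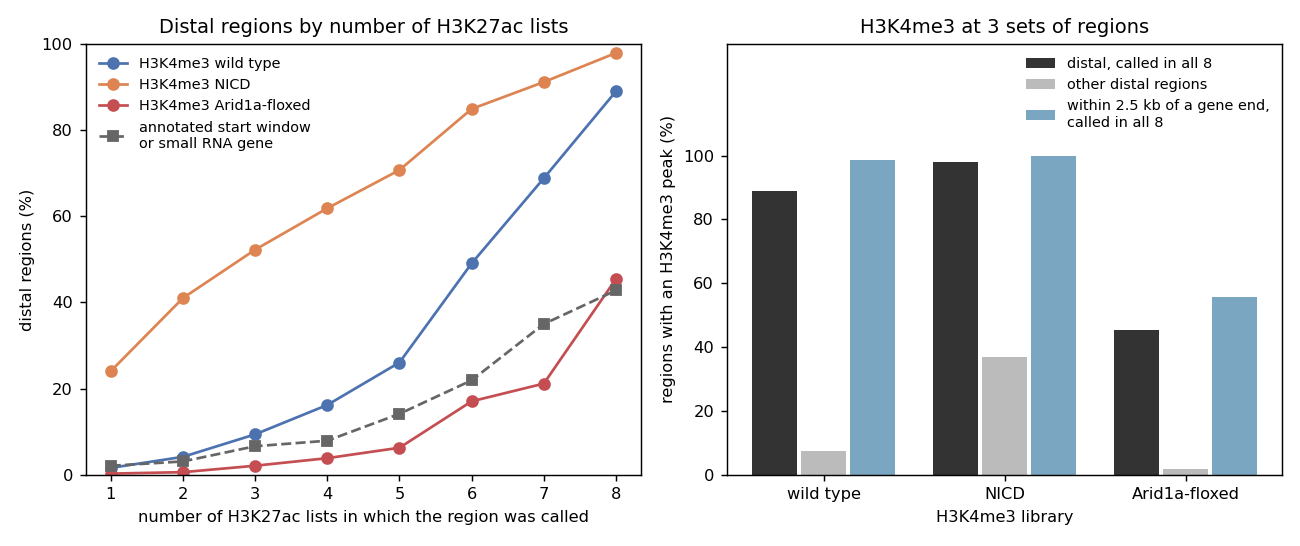
Left, share (%) of distal regions with an H3K4me3 peak in each of 3 libraries, or with an annotated start window or small RNA gene, against the number of H3K27ac lists in which the region was called; the last point of each line is the 528 regions. Right, share of regions with an H3K4me3 peak in each library (1 bar per library, no replicates), where the 528 regions reach 89.0%, 97.9% and 45.5%.

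H3K4me3 was common in every class. Of the 170 regions with a protein-coding start, 98.2% had a peak in wild type, 99.4% in NICD and 54.1% in Arid1a-floxed glands. For the 38 regions with a lncRNA start the shares were 89.5%, 100% and 21.1%. The 302 regions with no annotated start gave 84.8%, 96.7% and 45.4%, well above the background of distal regions in each library. The 18 small RNA regions gave 72.2%, 100% and 16.7%. Where present, H3K4me3 covered a median of 623 bp of a region with a protein-coding start and 412.5 bp of a region with no annotated start in wild type, and 978 and 776.5 bp in NICD glands.

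The regions were wide for distal sites and lay somewhat nearer to genes. Their median width after merging was 908.5 bp (231 to 2531 bp), against 328 bp over all distal regions. A median of 15.98 kb separated them from the nearest gene end, against 23.7 kb, and 88 of them (16.7%) lay between 2.5 and 5 kb away, against 8.85% of all distal regions. Inside a protein-coding gene lay 313 (59.3%), against 52.2%. Just beyond the limit lay regions at Xpo4 (2.532 kb), Stx3 (2.54 kb), Vopp1 (2.546 kb), Faap20 (2.56 kb) and Ak4 (2.595 kb). Just within it, and therefore left out, lay regions at Rusc1 (2467 bases), Zfp423 (2447 bases), Nudt19 (2442 bases), Hnrnph1 (2430 bases) and Zfp428 (2427 bases). All 5 regions left out had H3K4me3 in wild type and NICD glands. With a limit of 10 kb, 330 regions remained in the set.

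The 170 regions with a protein-coding start belonged to 166 genes, and their starts lay a median of 10.21 kb from the gene's 5′ end (2.62 to 496.6 kb). Of these genes, 87 (52.4%) had no H3K27ac peak within 2.5 kb of either gene end in any of the 8 lists, against 40.3% of all 21631 protein-coding genes, and 21 (12.7%) had one in all 8, against 15.1%. Tjp1, which encodes the tight junction scaffold ZO-1, is an example. Its region (chr7:65370348-65371331) held a start 156.6 kb from the 5′ end of the gene, and the ends of Tjp1 had no peak in any list. Peaks covered 822 and 849 bp of it in wild type, 984 and 856 bp in NICD, 728 and 856 bp in 1-allele and 907 and 870 bp in 2-allele glands. The 2-allele values lay between those of NICD, and wild type lay below both and between the values of 1-allele. Runx1, a transcription factor gene that is also active in isthmus cells of the stomach, likewise had a region far from its ends. The region (chr16:92697481-92698048) lay beside an internal start 128.7 kb from the gene's 5′ end, with no peak at the gene's ends in any list. The covered lengths were 467 and 392 bp in wild type, 482 and 504 bp in NICD, 449 and 281 bp in 1-allele and 385 and 395 bp in 2-allele glands, with NICD above the other groups, which overlapped.

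Other regions of this class lay in genes whose own ends were marked. The Elf2 region (chr3:51276354-51277993) held an internal start 63.2 kb from the 5′ end of this ETS factor gene, whose ends had peaks in all 8 lists. Its covered length was 1185 and 1119 bp in wild type, 1640 and 1511 bp in NICD, 412 and 902 bp in 1-allele and 1532 and 1501 bp in 2-allele glands. The 1-allele values were the lowest, wild type lay between, and NICD and 2-allele overlapped. Rfx1 encodes a winged-helix factor, and its region (chr8:84066823-84067347) lay 3.26 kb from the nearest end of the gene, whose ends had peaks in the NICD lists alone. Peaks covered 267 and 414 bp of it in wild type, 510 and 491 bp in NICD, 217 and 448 bp in 1-allele and 510 and 470 bp in 2-allele glands. NICD and 2-allele overlapped, above wild type and 1-allele, which also overlapped. In the strong region of Ccnl1 (chr3:65957424-65958912), whose window is printed above, the authors' fold enrichment was 7.81 and 9.54 in wild type, 11.03 and 10.4 in NICD, and 8.59 and 7.98 in 1-allele glands. The region at the Nfyc window (chr4:120824855-120825817) had a fold enrichment of 12.8 and 11.4, 18.03 and 15.6, and 10.48 and 10.6 in the same order. Fold enrichment is measured against the background of each library alone, so these values show strong peaks in each list and are not compared between lists.

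In the 208 regions with a protein-coding or lncRNA start, the strongest point of the peak lay just downstream of it. The median distance of the summit from the nearest annotated start was 177 and 175.5 bases downstream in wild type, 194 and 181 in NICD, and 196.5 and 197.5 in 1-allele libraries. Between 74.5% and 77.4% of the summits were downstream and 88.5% to 91.8% lay within 500 bases of the start. Regions of these classes were picked for overlap with a window around a start, so nearness of the summit was partly fixed by that choice. The H3K4me3 summits had medians of 222 bases in wild type, 194 in NICD and 262.5 in Arid1a-floxed glands. Over all 528 regions, the 6 H3K27ac summits of a region spanned a median of 156 bp, with 177.5 bp for a protein-coding start, 150 bp for no annotated start and 43 bp for small RNA genes.

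**Figure D2:**
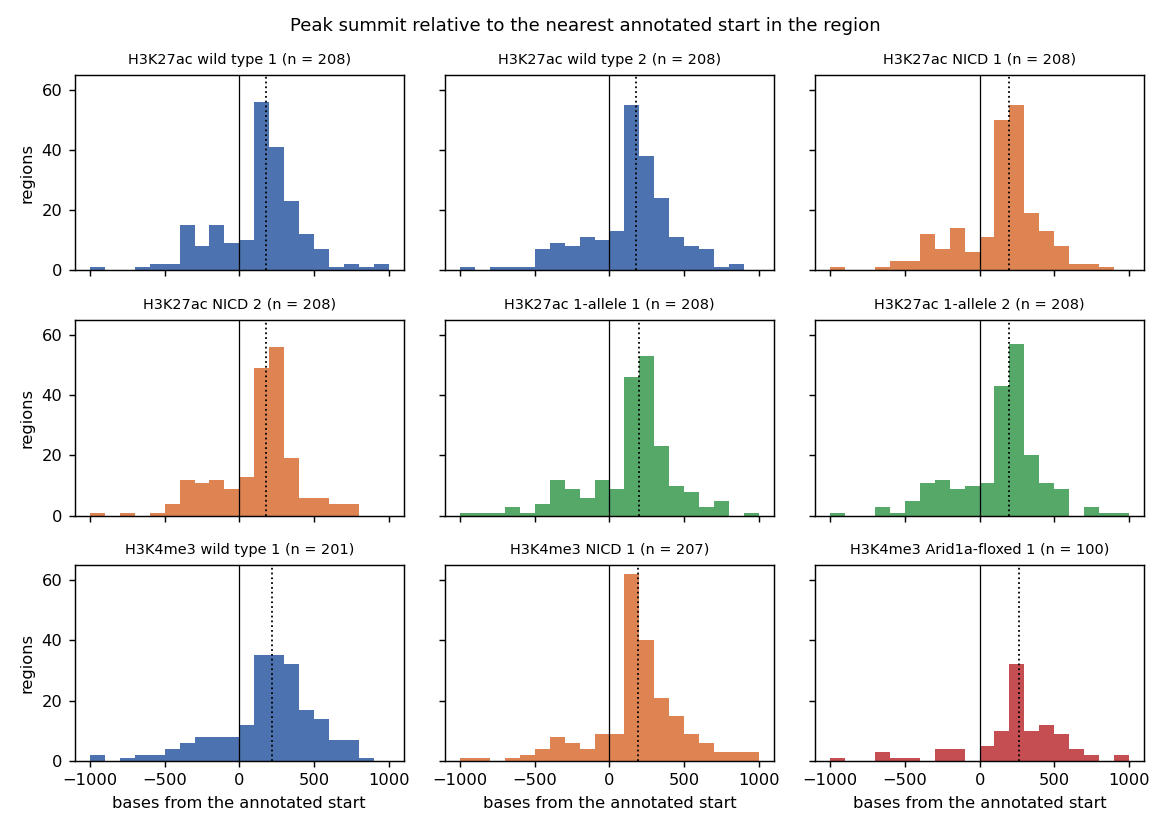
Number of regions by the distance, in bases, from the nearest annotated start in the region to the summit of its best peak, in 100-base bins, for 6 H3K27ac and 3 H3K4me3 libraries; positive is downstream, values past 1000 bases are drawn in the outermost bins, and dotted lines are medians. The H3K27ac medians lie between 175.5 and 197.5 bases downstream.

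Regions at small RNA genes had the highest median percentile of the 4 classes in every list, although single regions ranked low in some. The Mir193a region lay at the 34.7th and 15.8th percentile in the 1-allele lists and the Rnu11 region at the 21.9th in 1-allele replicate 2. Strength below is the mean, over the 6 scored H3K27ac lists, of the percentile of a region's best peak within its own list, with 100 the top. The 18 small RNA regions had a median strength of 98.96, against 79.9 for regions with a protein-coding start, 78.5 for a lncRNA start and 77.6 for no annotated start. Of the 18 genes, 15 were small nuclear RNA genes, 2 miRNA genes and 1 a small nucleolar RNA gene. The Rnu2-10 gene, which encodes a U2 spliceosomal RNA, overlapped a region near Arl4d (chr11:101657696-101658323). Its fold enrichment was 23.7 and 20.4 in wild type, 24.2 and 22.1 in NICD, and 14.7 and 13.2 in 1-allele glands. The 2-allele lists hold no scores, and this region lay at the 99.8th percentile of each by its place in the list. All 4 Rnu3b genes, which encode the U3 RNA of ribosomal RNA processing, lay in regions inside Tex14 (chr11:87442716-87471485), with strengths of 99.2 to 99.5. Regions also lay at Gm22317, Gm22634, Gm25679 and Gm26444 between Eapp and Snx6 (chr12:54709927-54739039), with strengths of 97.8 to 99.5. Genes of these families are near-identical copies, reads were 50 bases long, and the treatment of reads with several matches was not stated, so the division of reads between copies is uncertain. Snora26, a small nucleolar RNA gene near Usp46, had a region of strength 85.1, and the Mir193a region one of 52.7, with peaks covering 493 and 544 bp in wild type, 1131 and 803 bp in NICD, 298 and 257 bp in 1-allele and 557 and 909 bp in 2-allele glands. Mir193a was lowest in 1-allele glands, and the 2-allele values overlapped those of NICD. Terc, which encodes the RNA of telomerase and was singled out after its values were seen, overlapped a region counted as having no annotated start (chr3:96414196-96414892, strength 91.3). Its fold enrichment was 12.3 and 9.56 in wild type, 16.5 and 14.3 in NICD, and 5.97 and 9.51 in 1-allele glands, and it had H3K4me3 in wild type and NICD glands.

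**Figure D3:**
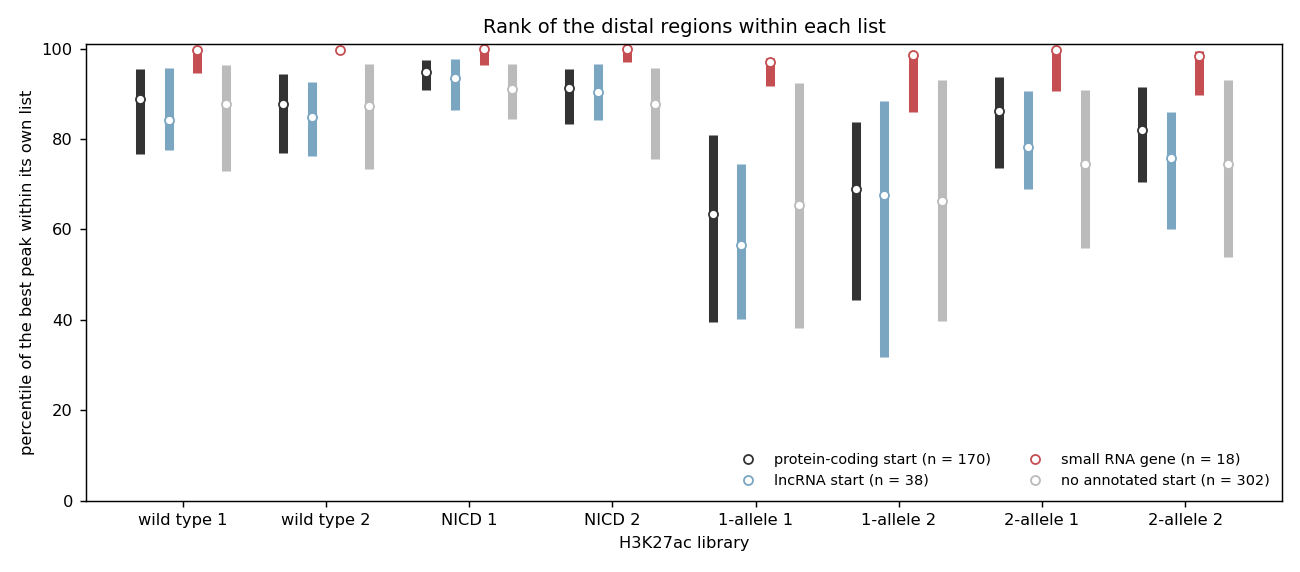
Percentile of the best peak of each region within its own H3K27ac list, by class of region; circles are medians, bars run from the lower to the upper quartile, and the 2-allele lists are ranked by place in the file. Small RNA regions have the highest median in each list, and the bars of the other 3 classes overlap.

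The 20 strongest regions outside chromosome 18 comprised 5 at small RNA genes and 15 with no annotated start, and none held a protein-coding or lncRNA start. The strongest lay 35.1 kb from Pak3 (chrX:143482848-143483277, strength 99.9). Its fold enrichment was 36.3 and 33.9 in wild type, 30.1 and 31.25 in NICD, and 31.1 and 26.8 in 1-allele H3K27ac lists. In the H3K4me3 lists it was 34.0 (wild type), 32.3 (NICD) and 32.5 (Arid1a-floxed). Next came regions near Mrgprd (chr7:145340802-145341550), near Csf2ra (chr19:61331133-61331709) and in Mdga2 (chr12:67059117-67059940), with strengths of 99.87, 99.86 and 99.84. The others with no annotated start lay near Fgf14, B230307C23Rik, Tmem196, Kcnh5, Asmt, Gm14496, Tcstv3, Fam107a, 4930467E23Rik, Cr2 and Diaph3. Across the 528 regions, 8 were at or above the 95th percentile in all 9 scored lists, of either mark and every genotype with scores, and 7 of these lay outside chromosome 18. In these 8 regions the widest covered length over the 8 H3K27ac libraries was a median of 1.35 times the narrowest, against 2.91 times over all 528. The Mdga2 region illustrates this, with 754 and 790 bp covered in wild type, 809 and 756 bp in NICD, 796 and 728 bp in 1-allele and 754 and 726 bp in 2-allele glands. The groups overlapped in this region, other than NICD and 2-allele. The lists were called without an input control and no list of artefact-prone regions was used here, and the part of repeats or copy number in these peaks was not tested. Without the 8 regions the H3K4me3 shares were 88.8%, 97.9% and 44.6%. So few of the 528 regions could hardly move a share, and they were chosen partly by H3K4me3. These shares therefore say nothing about artefacts among the other regions.

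**Figure D4:**
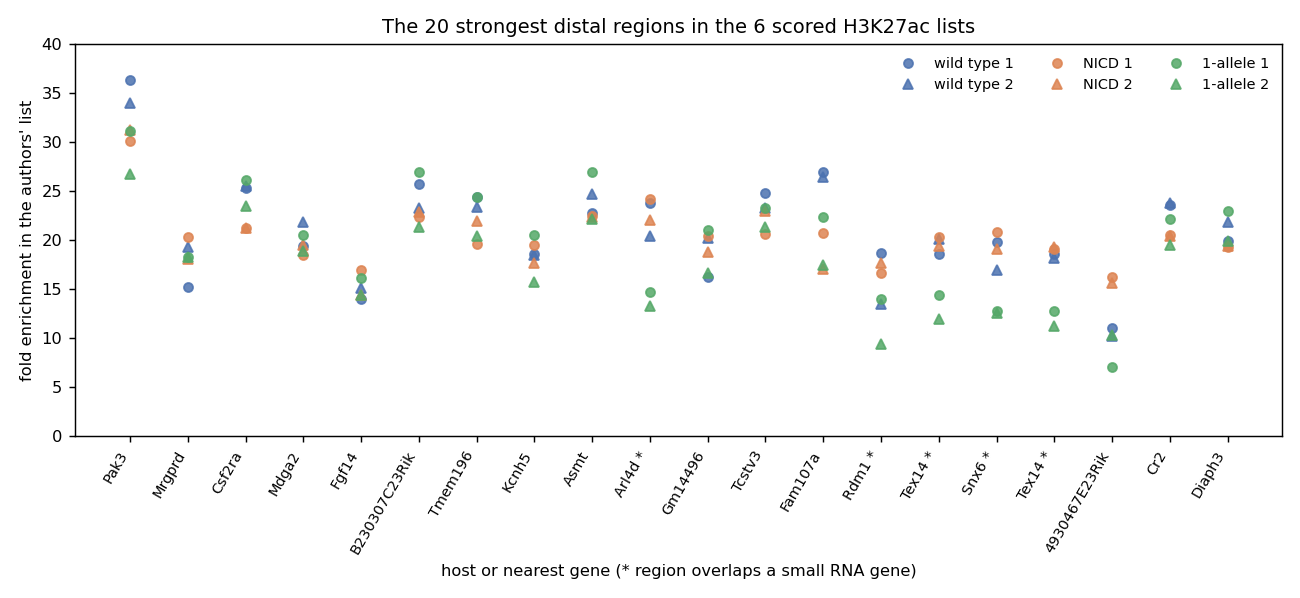
Fold enrichment over the local background, as given in the authors' 6 scored H3K27ac lists, of the 20 strongest regions outside chromosome 18, ordered by strength; circles are replicate 1 and triangles replicate 2, and names are the host or nearest gene. Values range from 7.03 in the region near 4930467E23Rik to 36.3 in the region near Pak3.

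Some regions came in runs. There were 8 runs of at least 3 regions with gaps of at most 50 kb, which held 33 regions, 11 of them at small RNA genes. The longest held 7 regions within 21.8 kb near the start of the chromosome 9 sequence (chr9:3001991-3023759). The nearest gene was Alkbh8, more than 311 kb away, and all 7 regions had H3K4me3 in every library. Their strengths ran from 75.7 to 94.5, beside a median of 79.0 over all 528 regions. The strongest had a fold enrichment of 2.19 and 2.19 in wild type, 2.18 and 2.28 in NICD and 2.17 and 2.12 in 1-allele glands, on pileups of 221 to 309 tags. A run of 5 lay near Gm40363 and Pdia4 (chr6:47744252-47773169), and another of 3 at Sfi1 (chr11:3123405-3169091). A run of 4 lay between Wnt7b, which encodes a Wnt ligand, and Ppara, which encodes a nuclear receptor of fatty acid oxidation (chr15:85634758-85670766). At its strongest region the fold enrichment was 9.40 and 9.72 in wild type, 15.8 and 15.3 in NICD, and 5.31 and 6.24 in 1-allele glands. Outside these runs, Nfia and Tcte2 had 3 regions each and Asmt had 2. Leaving out regions in runs and at small RNA genes, 488 remained and the H3K4me3 shares were 89.1%, 97.7% and 45.9%.

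The 5 widest regions lay in Sh3pxd2a (2531 bp), near Klf9 (2333 bp), near Gm46353 (2200 bp), in Cenpo (2173 bp) and in Bicral (2170 bp). Klf9 encodes a Krüppel-like transcription factor that responds to steroid hormones, and its region (chr19:23134074-23136406) held the start of the lncRNA 2410080I02Rik. Peaks covered 765 and 553 bp in wild type, 2333 and 1747 bp in NICD, 291 and 529 bp in 1-allele and 762 and 925 bp in 2-allele glands. NICD was the widest and 1-allele the narrowest, and wild type and 2-allele overlapped. Regions with no H3K4me3 in any library numbered 6 and made up 1.14% of the regions. Those named here lay near Vps37b, near Raph1, in Ston1, near Zfp90 and in Cenpo, with strengths of 74.6, 61.0, 60.8, 48.6 and 33.7.

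The regions were assigned to 474 protein-coding genes, the host or otherwise the one with the nearest end, which is 2.19% of all such genes. Of these genes, 40 had more than 1 region. Over 20 gene lists of cell types and pathways with 437 different genes, 23 genes (5.26%) had a region. The lists were chosen with results of these data known, so this share is a description. None of the genes in the lists for surface pit cells, chief and mucous neck cells, ErbB and EGF signalling, immune cells, fibroblasts and muscle, or endothelium had one. Among 20 parietal cell genes, Ezr had a region. Ezr encodes ezrin, a link between the membrane and actin that is abundant in parietal cells, and its best region lay 44.4 kb away with H3K4me3 in NICD glands alone. Among 12 isthmus and stem cell genes only Runx1 had one, and among 12 endocrine genes only Isl1, a LIM homeobox factor, whose nearest end was 105119 bases away. The Isl1 region (chr13:116192741-116193151) had H3K4me3 in all 3 libraries, with fold enrichments of 18.3, 16.6 and 18.7.

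Regulatory genes with a region came from several lists, each with a small count. The background beside these counts is 2.19% of all protein-coding genes, and no list was tested. Distal regions of any kind were found for 23 of 26 gastric and endoderm factors, 24 of 30 AP-1 genes and 4 of 16 silent genes. The share over all protein-coding genes was 37.6%, so the background is not matched to the lists. Of 30 AP-1 and immediate early genes, 4 had one: Atf3 and Btg2, which respond to stress, and the orphan nuclear receptors Nr4a1 and Nr4a2. The Atf3 region (chr1:191223996-191225065) held the start of the lncRNA D730003I15Rik, 40.7 kb from the gene. Peaks covered 553 and 636 bp of it in wild type, 1024 and 831 bp in NICD, 227 and 465 bp in 1-allele and 987 and 969 bp in 2-allele glands. The 1-allele libraries covered least, wild type came next, and NICD and 2-allele overlapped. Of 26 Ets and Grainyhead genes Elf2 and the epithelial factor Elf3 had a region, and of 17 Klf genes Klf9. Among gastric and endoderm transcription factors 2 of 26 did, Rfx1 and 1 on chromosome 18. Of 38 junction and keratin genes Tjp1 and Krt18 had one. From the pathway lists came Psen2, a catalytic subunit of the secretase that releases active Notch (1 of 34 Notch genes), Wnt7b and Axin1 (2 of 28 Wnt genes) and Wwc1 (1 of 23 Hippo genes). Nrf1 and Ppara did among 25 energy genes. Of 29 SWI/SNF genes, Bicral and Arid1b, the paralog of Arid1a, had regions. The region assigned to Arid1b upstream of the gene (chr17:4907799-4908868) held the start of the lncRNA Gm34507 and was covered over 660 and 875 bp in wild type, 1040 and 923 bp in NICD, 469 and 769 bp in 1-allele and 953 and 934 bp in 2-allele glands. NICD and 2-allele overlapped above wild type, and 1-allele overlapped wild type. Among 16 genes listed as silent in this tissue, the neuronal gene Snap25 had a region 33.5 kb away. The ends of Snap25 had a peak in wild type replicate 2 and in the NICD and 2-allele lists, so the label silent is not borne out for it.

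Although called in every library, the regions were not covered to the same length. The median covered length of a region was 508.5 and 514 bp in wild type, 858.5 and 668.5 bp in NICD, 297 and 419 bp in 1-allele and 660.5 and 628.5 bp in 2-allele libraries. Group means were 511 ± 3.89 bp, 764 ± 134 bp, 358 ± 86.3 bp and 645 ± 22.6 bp (SD, n = 2 each), so NICD and 2-allele libraries covered more than wild type and 1-allele libraries less, with no overlap between groups. NICD replicate 1 covered the most in 367 regions (69.5%) and 1-allele replicate 1 the least in 329 (62.3%). Differences between groups made up 87.5% of the sum of squares over the 8 libraries. The lengths come from the peaks that chose the regions, so they are a description with no test. Gene-end regions in all 8 lists were likewise covered least in 1-allele libraries, then in wild type, with medians of 542.5 and 554.5, 896.5 and 711, 280 and 434.5, and 732.5 and 711 bp, and here 2-allele and NICD libraries overlapped. Whole lists differed in peak width too, with medians of 240 and 272 bp in wild type and 396 and 347 bp in NICD. The medians were 247 and 332 bp in 1-allele and 410 and 411 bp in 2-allele lists. The part of this width in the covered lengths was not tested. List length moved with the covered lengths as well. With every list cut to 5148 peaks, 214 regions were in all 8, and the share between groups was 84.3%. Their medians were then 480 and 525.5 bp in wild type, 844 and 678 bp in NICD, 360.5 and 505.5 bp in 1-allele and 733 and 668.5 bp in 2-allele libraries. NICD and 2-allele overlapped in these lists, above wild type and 1-allele, which also overlapped.

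The share of regions with another peak nearby differed between groups in the full lists. No such share was computed for other regions, so the difference is not particular to these. A peak outside the 528 regions lay within 10 kb of 33.7% and 30.9% of the regions in wild type, 54.4% and 39.4% in NICD, 10.8% and 12.3% in 1-allele and 28.0% and 26.7% in 2-allele libraries. The groups did not overlap, with means of 32.3 ± 2.01%, 46.9 ± 10.6%, 11.6 ± 1.07% and 27.4 ± 0.937% (SD, n = 2 each). Between-group differences made up 91.5% of the sum of squares, with an exact permutation p of 0.00952 over all ways to pair the libraries, the smallest possible, and 0.0143 after Benjamini-Hochberg adjustment over 3 measures, covered length counted among them. List length moved with this measure too, and with the lists cut to 5148 peaks 12.7% of the sum of squares lay between groups and the adjusted p was 0.943. Without either wild type library the adjusted p was 0.0857.

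Peaks at the ends of the assigned genes were about as common as at all genes. In wild type, 48.5% and 46.0% of the 474 genes had an H3K27ac peak within 2.5 kb of an end, against backgrounds of 47.7% and 45.3% of all protein-coding genes. In NICD the shares were 60.5% and 54.2% against 58.1% and 52.1%, in 1-allele 17.9% and 28.7% against 18.2% and 28.6%, and in 2-allele 44.5% and 45.4% against 46.6% and 45%. The log2 ratio of these shares was 0.024 ± 0.0024 in wild type, 0.059 ± 0.00013 in NICD, -0.010 ± 0.018 in 1-allele and -0.028 ± 0.055 in 2-allele glands (SD, n = 2 each). The exact permutation p was 0.133, and 0.133 adjusted, which misses the threshold of 0.05. Without either 2-allele library the adjusted p was 0.0286. Assigned genes as a set thus stood near the background in each library, and 15.6% of them had an end peak in all 8 lists against 15.1% of all genes. The classes differed. Genes with no end peak in any list made up 52.4% for protein-coding starts, 29.9% for no annotated start, 29.7% for lncRNA starts and 9.09% for small RNA genes. Over all genes this share was 40.3%. In the same order, 12.7%, 14.4%, 32.4% and 36.4% had an end peak in all 8 lists.

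**Figure D5:**
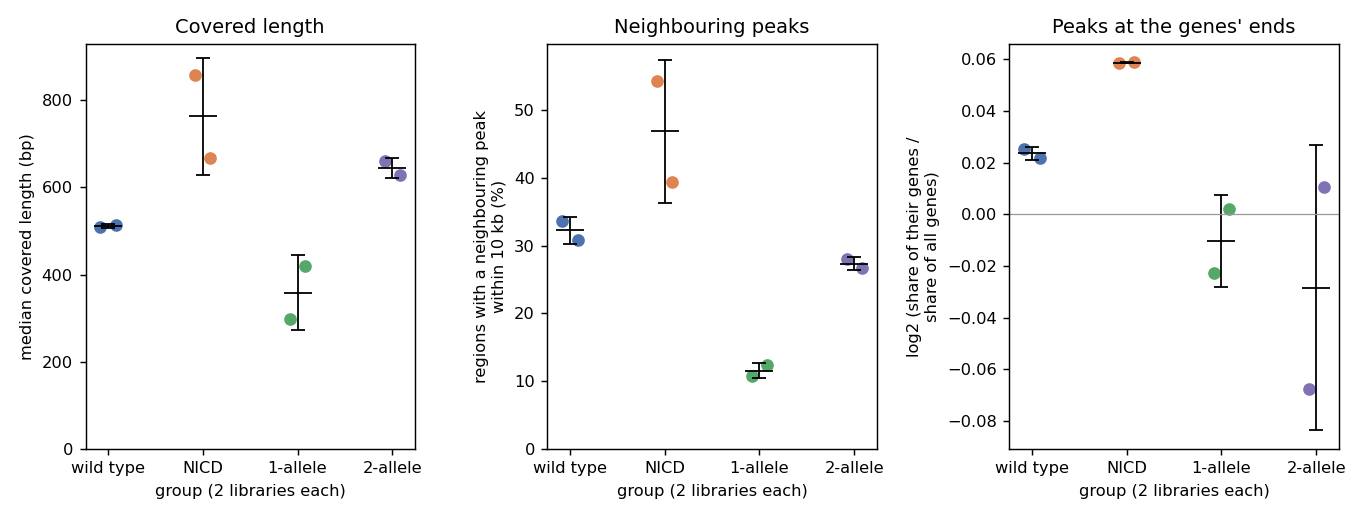
Values of each H3K27ac library (points) with group mean and SD (black, n = 2) for the median covered length of the 528 regions in bp, the share with another peak within 10 kb in %, and the log2 ratio of the share of their genes with a peak at an end to that of all genes. NICD is the highest and 1-allele the lowest group in the first 2 panels.

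The order of the regions by strength was compared between lists. Spearman's rho over the 528 regions, between the percentiles in 2 lists, was 0.596 to 0.772 for the 4 pairs of libraries of the same group and 0.248 to 0.691 for the 24 pairs of different groups, ranges that overlap and were not tested. These are correlations across regions, which are not replicates, and the percentiles share the peak caller and the read depth of each library. Between an H3K4me3 list and a scored H3K27ac list, rho of the fold enrichment over the regions with both ran from 0.520 to 0.776.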

How the data were processed

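Fixed gland epithelium was profiled by ChIP-seq in 11 libraries, 8 for H3K27ac and 3 labelled H3K4me3. Per the labels' protocols, the antibody was one to H3K27ac throughout, so that behind the H3K4me3 libraries remains unstated. Bowtie2 (build GRCm38, mm10) and MACS2 are the tools in the submitters' processing notes. Version 2.0.10.20131216 of MACS made 9 of the lists per the file headers, from each library without control at a q-value threshold of 0.05. These deposited lists give a pileup signal, −log10 p-values and −log10 q-values, and a fold enrichment for each peak. All are the authors' values, used here to describe or rank peaks within a list by −log10 q, ties by pileup. The 2-allele lists deposited by the authors give positions only, and their order in the file served as rank.

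Peaks were merged and annotated in Python 3.11.15 (pandas 2.3.3, numpy 2.4.6). Gene ends of 21631 protein-coding genes and start windows came from RefSeq GRCm38.p6. A region overlapping a small RNA gene was put in that class first, then in the protein-coding or lncRNA class. For each measure, the between-group sum of squares was compared with all ways to pair the 8 libraries (an exact permutation test), adjusted by Benjamini-Hochberg over 3 measures; the H3K4me3 share by an exact sign flip over 3 libraries. Both tests were checked on made-up values with a known answer, and the choice of regions on simulated intervals. The p planned for covered length counts in the adjustment but is not reported, since the peaks measured also chose the regions.

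The regions, gene lists and tests were chosen with earlier results of these data known. Named are the 20 strongest regions, the 10 genes with most regions, up to 4 genes per list, the 5 widest, 5 without H3K4me3 and 5 on each side of the 2.5 kb limit; regions on chromosome 18 are counted and not named, and 2 others are not reported here by name. Alternatives were the overlap, distance, q and length of the lists, each library left out, the replicate block, and, added after seeing the data, leaving out small RNA genes, runs or annotated starts.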

Additional observations from a re-analysis of the deposited data

How the results depend on the processing

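The regions numbered 330 with a 10 kb limit, 324 with a −log10 q of at least 5 in the scored lists, 214 with lists cut to 5148 peaks, 302 without those at an annotated start or small RNA gene, and 6 with no H3K4me3 peak; leaving out 1 library gave 528 to 903, and the other settings stayed within 1.5 times of 528. H3K4me3 was higher at the regions than at other distal regions under all 22 alternatives, by 34.0 to 71.4 points (52.4 to 71.4 leaving out 1 library). The share of the sum of squares between groups for covered length, a description, was 84.3% with lists cut to 5148 peaks, 85.6% without both 2-allele lists and 87.5% with the replicate block, and ran from 85.5% to 95.9% leaving out 1 library. Neighbouring peaks lost the call under the same 3 settings, with 12.7%, 92.1% and 91.5%. The adjusted p of the exact permutation test was 0.1 without both 2-allele lists and 0.0625 with the replicate block. Without both 2-allele lists, 6 libraries cannot give an exact p under 0.0667. Leaving out 1 library gave 89.3% to 99.6%, and the call was also lost when either wild type library was left out. For the ends of the assigned genes, leaving out 1 library gave 64.1% to 98.3%, past 0.05 without either 2-allele library, and the block left it short at an adjusted p of 0.0833. With the block no exact p can fall under 0.0417. Libraries with the same number shared correlations of 0.019 to 0.084 in their deviations, so the numbers were not taken to pair them. Replacing 300-base start windows by their last 150 bases lowered the KLF share to 25.2% and the ETS share to 17.0%. Motif shares of the regions themselves were planned and not run, since no genome sequence was used here. The cause of these changes was not tested, and the unknown depth of the 2-allele libraries limits every comparison with them.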
